A study of Homo sapiens with 6 samples.

Results

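Cells respond to low oxygen through the hypoxia-inducible factor (HIF), a transcription factor whose alpha subunit is marked for destruction by oxygen-dependent prolyl hydroxylases and the VHL ubiquitin ligase, and which otherwise binds short DNA elements near its targets. Besides glycolytic enzymes, its targets serve pH control, vessel growth, removal of mitochondria, feedback on oxygen sensing and chromatin. Described here are 10 such genes with no role in glycolysis, taken by symbol from a list of genes. They are the carbonic anhydrase genes CA9 and CA12, the secreted factor genes VEGFA and ADM, the mitophagy receptor genes BNIP3 and BNIP3L, the oxygen sensor gene EGLN3, ANKRD37, NDRG1 and the histone demethylase gene KDM3A. All 10 had a row among the 25969 genes of the files, and all 10 passed the filter on low values.

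RNA was sequenced from 3 libraries of cells given a VIM-AS1 overexpression vector by transfection, and from 3 control libraries of cells with the pcDNA3.1 vector. VIM-AS1 is a noncoding RNA transcribed opposite to VIM, the vimentin gene. The labels call all 6 libraries LNCaP, an androgen-sensitive line from a prostate cancer metastasis, and give the controls as wild type. They name no oxygen level, time after transfection or separate cultures, so the p-values rest on a spread between libraries that may be technical. VIM-AS1 stood at 2197, 2019 and 2763 normalized reads with the vector and at 8.63, 1.22 and 5.53 in the controls. VIM was at 5114, 5061 and 5532 against 5912, 6138 and 7128, below all controls in each VIM-AS1 library (limma with the term explained below, adjusted p = 0.061, and 0.00666 with a replicate block).

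The labelled line was checked against prostate luminal markers. KLK3, the gene of prostate-specific antigen, was at 0 normalized reads in 5 libraries and at 1.92 in the other, and FOLH1 did not exceed 3.84, both at or near the floor of 3 reads that a count of 0 allows (2.37 to 3.67 normalized reads). HOXB13, KRT8 and KRT18 were present. KLK3 and FOLH1 define LNCaP cells, so the libraries went against their label on both. Recovered reads per library numbered 14762893 to 19889745. In both groups the third library deviated from the others in the same way, and this shift followed GC content (Spearman rho -0.83 across 13168 genes, which are not independent replicates). Reads from mitochondrial genes made up 5.57% to 7.06% of the total with VIM-AS1 and 8.73% to 14.3% in the controls (two-sided p = 0.1 by an exact permutation test, as small as 3 against 3 allows), and the part of this in the results below was not tested.

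The DNA letters that HIF binds have the core ACGTG or GCGTG. Promoter sequence in RefSeq (GRCh38.p14) was examined for 7 of the 10 genes. The 250 bases before each of their starts were searched for both cores on both strands. The promoters of the other members were not searched, so the counts below do not cover them. A CACGTG palindrome counts once per strand. A core was found for 6 of the 7 genes, EGLN3 being the exception, while 43.2% of 35116 promoter windows of that length hold one. The 30-base stretches below are shown because they belong to the gene that fell most (CA9), the gene that rose (CA12) and the searched genes with the most matches (BNIP3 and ANKRD37). Capitals mark the cores, read 5′ to 3′ on the strand of the gene, so that CACGT and CACGC are cores of the opposite strand.
CA9, chr9:35673898-35673927, plus strand: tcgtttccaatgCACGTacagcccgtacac
CA12, chr15:63382063-63382092, minus strand: gcggatctcaccCACGCctgccagcagctc
BNIP3, chr10:131982031-131982060, minus strand: ccgCACGTGccaCACGCacccCACGCccct
ANKRD37, chr4:185396676-185396705, plus strand: ctcCACGTGccagtgtttgtgtACGTGcgg
CA9 had 1 match, 18 bases before its RefSeq start (35673928), and CA12 had 1, 234 bases before its own (63381846). Both starts, and those of BNIP3 and ANKRD37, lie inside the gene spans given below, which begin further upstream. BNIP3 had 6 matches within the 250 bases and ANKRD37 had 3. A match describes letters and is not a bound site.

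The 10 genes did not move as a group. In limma on log2(normalized reads + 1), with only the group in the model, none passed an adjusted p of 0.05, in a fit that called 0.0239% of 20927 genes (0.0143% higher and 0.00956% lower). In that fit 2 members, CA9 and CA12, had an unadjusted p under 0.05. On the recovered reads edgeR and DESeq2 also called no member, each with 2 members at an unadjusted p under 0.05. Called were 0.0191% of 20927 genes by edgeR and 2.26% of the 15650 genes with an adjusted p from DESeq2. The first and second libraries alone likewise gave no called member, where 1.61% of genes were called. With a term for the third libraries CA12 rose, CA9 and BNIP3L fell and 7 did not pass. That fit called 19.4% of all tested genes (11.5% higher and 7.94% lower), so 3 of 10 is near the background. The median log2 fold change of the 10 was 0.11, against -0.02 over all tested genes. In what follows, a gene that "rose" or "fell" passed limma with that term at 0.05 after adjustment. The term was picked from these same data, so its p-values may be too small. With a block for the replicate number NDRG1 was called as well, and the count became 2 higher and 2 lower, in a fit that called 26.6% of genes (15.8% higher and 10.8% lower). The labels do not pair libraries, and the block assumes that numbers 1 and 2 pair. Groups did not overlap for CA9 and CA12 alone among the 10, against 19.8% of all tested genes (9.5% higher and 10.3% lower).

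**Figure D1:**
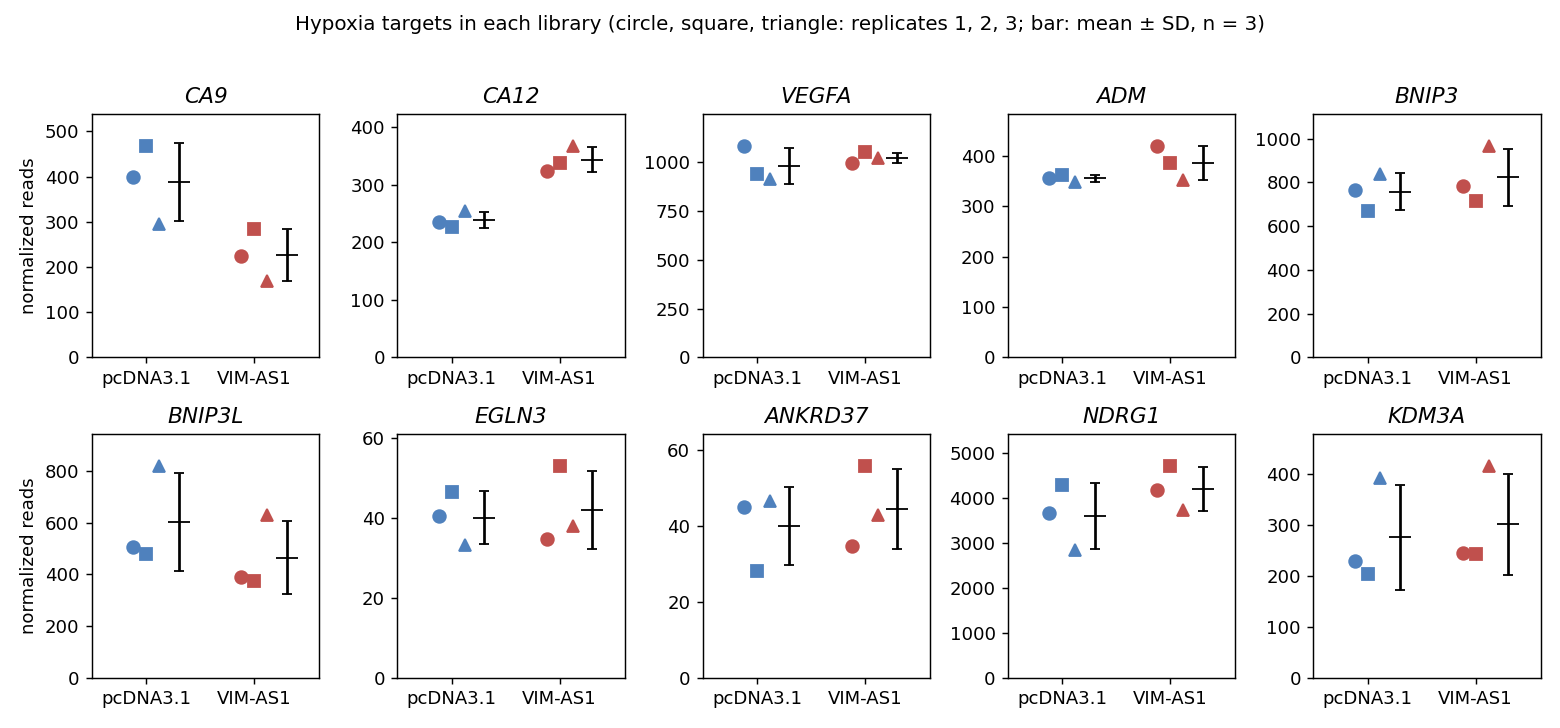
Normalized reads (vertical axes, from 0) of each of the 10 genes in the 3 pcDNA3.1 libraries (blue) and the 3 VIM-AS1 libraries (red), with mean ± SD beside them. CA9 lies lower and CA12 higher in every VIM-AS1 library, and the third libraries (triangles) of both groups stand high for BNIP3L and KDM3A.

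Carbonic anhydrases hydrate carbon dioxide to bicarbonate and protons, and the enzymes encoded by CA9 and CA12 sit in the plasma membrane with the catalytic domain outside the cell. CA9 (ENSG00000107159, chromosome 9, 35673856 to 35681159, plus strand, GRCh38) was at 224.4, 284.1 and 168.8 normalized reads in VIM-AS1 replicates 1 to 3 and at 400.0, 467.9 and 295.4 in control replicates 1 to 3. Each VIM-AS1 library was below each control, and in both groups the third library was the lowest. CA9 fell from 387.8 ± 86.9 to 225.8 ± 57.7 (SD, n = 3), a log2 fold change of -0.78 ± 0.14 (SE; limma with the term, adjusted p = 0.000452). Without the term the adjusted p was 0.24, and with the replicate block it was 6.28e-06. The differences within replicate numbers 1, 2 and 3 were -0.83, -0.72 and -0.80 on the log2 scale. Leaving out VIM-AS1 replicate 3 or control replicate 3 ended the call (adjusted p = 0.075 and 0.080). With the term, either omission leaves only the first and second libraries to estimate the difference, which was -0.77 in both cases.

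Exons of ARHGEF39 on the opposite strand cover 38.5% of the CA9 exons (643 of 1670 bp), and no source names the kit as stranded, so reads from that stretch may belong to either gene. ARHGEF39 itself stood at 435.7 normalized reads with VIM-AS1 and 427.8 in the controls. Corrected for GC content and transcript length in each library, the log2 fold change of CA9 was -0.57, and it then passed with the term (limma, adjusted p = 0.0027, 22.5% of genes called) and without it (adjusted p = 0.025, 10.7% called).

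CA12 (ENSG00000074410, chromosome 15, 63321378 to 63382161, minus strand) went the other way. It was at 324.5, 338.0 and 367.4 normalized reads with VIM-AS1 and at 235.0, 226.0 and 253.5 in the controls. The groups were separate and each was tight. CA12 rose from 238.2 ± 14.0 to 343.3 ± 21.9 (SD, n = 3), a log2 fold change of 0.53 ± 0.13 (limma with the term, adjusted p = 0.00583). Without the term the adjusted p was 0.31, and with the replicate block 0.000685. The call ended without VIM-AS1 replicate 3 or control replicate 3, where the first and second libraries alone gave a log2 fold change of 0.52 (adjusted p = 0.11). Corrected for GC content and transcript length, the log2 fold change of CA12 was 0.43 (limma, adjusted p = 0.011 with the term and 0.067 without it).

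The ratio of CA12 to CA9 reads within a library does not depend on how libraries are scaled. No GC correction was applied to it, and the longest transcripts hold 50.2% GC for CA12 and 60.1% for CA9. The ratio was 1.45, 1.19 and 2.18 in VIM-AS1 replicates 1 to 3, and 0.588, 0.483 and 0.858 in the controls. Every VIM-AS1 library was above every control, by 2.46, 2.46 and 2.53 times within replicate numbers (2.49 times over the group means of the log ratio; two-sided p = 0.1 by an exact permutation test, as small as 3 against 3 allows). This ratio, and the one for BNIP3 and BNIP3L below, were chosen after the values were seen. A ratio shows unequal change only, and says nothing on which of both genes is more abundant, since their lengths differ.

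**Figure D2:**
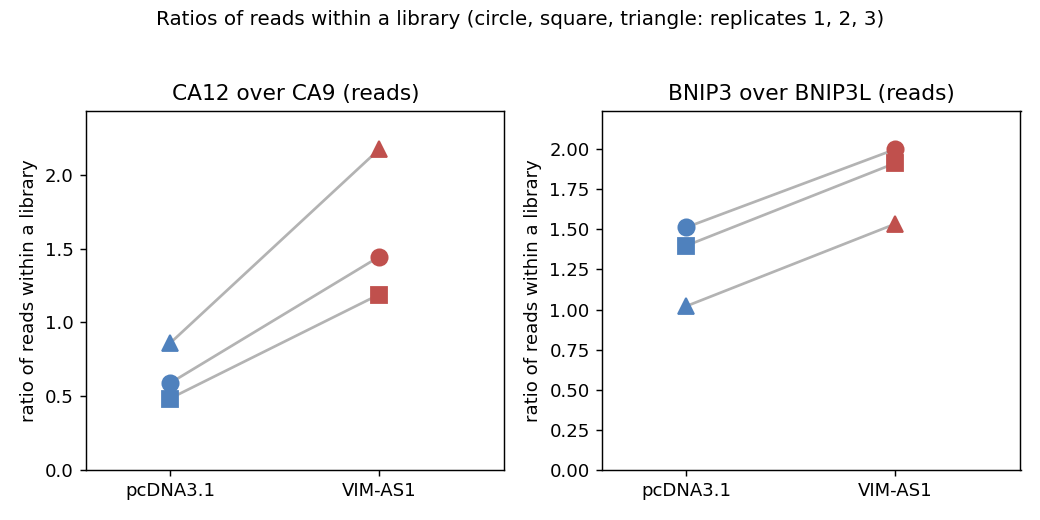
Ratio of reads of CA12 to CA9 (left) and of BNIP3 to BNIP3L (right) within each library (vertical axes, from 0), with grey lines joining libraries of the same replicate number. All 3 lines rise in both panels, from 0.483 to 0.858 up to 1.19 to 2.18 for CA12 over CA9.

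Among other carbonic anhydrase genes, CA11, whose product belongs to the family but lacks catalytic activity, fell from 395.6 ± 64.5 to 224.1 ± 54.1 (log2 fold change -0.83 ± 0.13, limma with the term, adjusted p = 0.000146). The mitochondrial enzyme gene CA5B was at 377.2 to 442.8 with VIM-AS1 and 380.7 to 431.3 in the controls and did not pass. CA5A, CA13 and CA14, at low levels, did not pass either, and CA7 and CA8 were below the filter.

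BNIP3 and BNIP3L encode related proteins of the outer mitochondrial membrane that recruit the autophagy machinery to mitochondria. BNIP3L (ENSG00000104765, chromosome 8, 26382898 to 26505636, plus strand) was at 391.9, 374.3 and 630.4 normalized reads with VIM-AS1 and at 507.4, 478.9 and 820.6 in the controls. The third library was the highest of each group, so the groups overlapped although each VIM-AS1 library was below the control of its number. BNIP3L fell by 0.37 ± 0.11 on the log2 scale (limma with the term, adjusted p = 0.0235), with differences of -0.37, -0.35 and -0.38 within numbers 1, 2 and 3. Without the term the adjusted p was 0.62, and with the replicate block 0.00347. Of the 3 calls it ended under the most alternatives, namely with the GC and length correction (adjusted p = 0.054) and without VIM-AS1 replicate 1, 2 or 3 (0.065, 0.11 and 0.18) or control replicate 3 (0.19). The log2 fold change was -0.29 with the correction and between -0.39 and -0.35 in those fits with a library left out.

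BNIP3 (ENSG00000176171, chromosome 10, 131966455 to 131982013, minus strand) did not follow its relative. It was at 783.9, 716.2 and 967.0 normalized reads with VIM-AS1 and at 767.4, 669.5 and 837.2 in the controls. Each VIM-AS1 library was slightly above the control of its number, with overlapping groups. The log2 fold change was 0.11, with a 95% interval from -0.12 to 0.34 (limma with the term, adjusted p = 0.53). The ratio of BNIP3 to BNIP3L reads was 2, 1.91 and 1.53 with VIM-AS1 and 1.51, 1.40 and 1.02 in the controls. Groups were separate by a narrow margin, with the ratio 1.32, 1.37 and 1.5 times higher within numbers 1, 2 and 3 (two-sided p = 0.1 by an exact permutation test). No GC correction was applied to this ratio either, and the longest transcripts hold 51.4% GC for BNIP3 and 38.9% for BNIP3L.

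VEGFA encodes the main growth factor of blood vessels, and ADM encodes adrenomedullin, a peptide that widens vessels. VEGFA (ENSG00000112715, chromosome 6, 43770184 to 43786487, plus strand) was at 998.8, 1051 and 1022 normalized reads with VIM-AS1 and at 1085, 940.7 and 913.0 in the controls. The highest and the lowest values of the 6 were both controls. Its log2 fold change was 0.07, with an interval from -0.15 to 0.29 (limma with the term, adjusted p = 0.71), and it was 0.015 after the GC and length correction. ADM (ENSG00000148926, chromosome 11, 10304680 to 10307397, plus strand) was at 420.4, 386.0 and 352.0 against 356.8, 361.6 and 348.3. The first and second VIM-AS1 libraries were above all controls and the third was among them. The log2 fold change was 0.11, with an interval from -0.14 to 0.37 (limma with the term, adjusted p = 0.56). After the GC and length correction it was 0.27 (limma with the term, adjusted p = 0.099).

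Of 7 tested VEGF ligand and receptor genes besides VEGFA, 1 rose and 1 fell, in a fit that called 11.5% of all tested genes higher and 7.94% lower. NRP1, a co-receptor, rose from 25.3 ± 5.72 to 58.8 ± 19.1, and PGF, which encodes placental growth factor, fell from 109.9 ± 41.0 to 58.9 ± 19.3 (adjusted p = 0.0126 and 0.00581, limma with the term). FLT1, a VEGF receptor, was at 1.05 normalized reads or less in each library. ADM2, a peptide gene of the adrenomedullin family, fell from 156.6 ± 31.6 to 70.5 ± 16.8 (log2 fold change -1.15 ± 0.19, limma with the term, adjusted p = 0.000251). Its groups did not overlap. CALCRL and RAMP1, parts of receptors of the peptide family, were at no more than 1.96 normalized reads in each library.

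EGLN3 encodes a prolyl hydroxylase that marks the HIF alpha subunit for VHL, and is itself a HIF target. EGLN3 (ENSG00000129521, chromosome 14, 33924231 to 34462774, minus strand) was at 34.8, 52.9 and 37.9 normalized reads with VIM-AS1 and at 40.3, 46.4 and 33.2 in the controls. The groups lay over each other. With 33 to 54 reads per library the interval was wide, from -0.53 to 0.63 around a log2 fold change of 0.05 (limma with the term, adjusted p = 0.92), and the sign turned to -0.0044 under library size scaling. ANKRD37 (ENSG00000186352, chromosome 4, 185396021 to 185400628, plus strand), which encodes a small ankyrin repeat protein, was at 34.8, 55.8 and 43.0 against 45.1, 28.1 and 46.6. The lowest library was control replicate 2, with 23 reads. The log2 fold change was 0.16, with an interval from -0.45 to 0.77 (limma with the term, adjusted p = 0.76), and it was -0.07 without that library and 0.35 after the GC and length correction. Exons of UFSP2 on the opposite strand cover 35.2% of the ANKRD37 exons. Changes of EGLN3 or ANKRD37 smaller than these intervals were not detectable at this depth.

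NDRG1 encodes a cytoplasmic protein linked to stress and differentiation, and in prostate cells it is also induced by androgen. NDRG1 (ENSG00000104419, chromosome 8, 133237171 to 133302022, minus strand) was at 4170, 4713 and 3733 normalized reads with VIM-AS1 and at 3658, 4291 and 2835 in the controls. Each VIM-AS1 library was above the control of its number, and the groups overlapped. The log2 fold change was 0.24 ± 0.11 (limma with the term, adjusted p = 0.14), and with the replicate block the adjusted p was 0.0228. Its relative NDRG3 fell from 1152 ± 196 to 843.8 ± 60.6 (limma with the term, adjusted p = 0.00956).

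KDM3A encodes a demethylase of histone H3 lysine residues. KDM3A (ENSG00000115548, chromosome 2, 86440647 to 86492716, plus strand) was at 245.5, 242.0 and 415.5 normalized reads with VIM-AS1 and at 229.3, 204.0 and 392.5 in the controls. The third library of each group was far above the other 4, by 0.81 on the log2 scale, while the groups differed by 0.14 with an interval from -0.13 to 0.41 (limma with the term, adjusted p = 0.50). The related gene KDM3B rose from 844.2 ± 35.0 to 1199 ± 14.7 (log2 fold change 0.51 ± 0.10, limma with the term, adjusted p = 0.00148). JMJD1C, of the same family, did not pass with the term and was called lower with the replicate block (adjusted p = 0.0149).

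**Figure D3:**
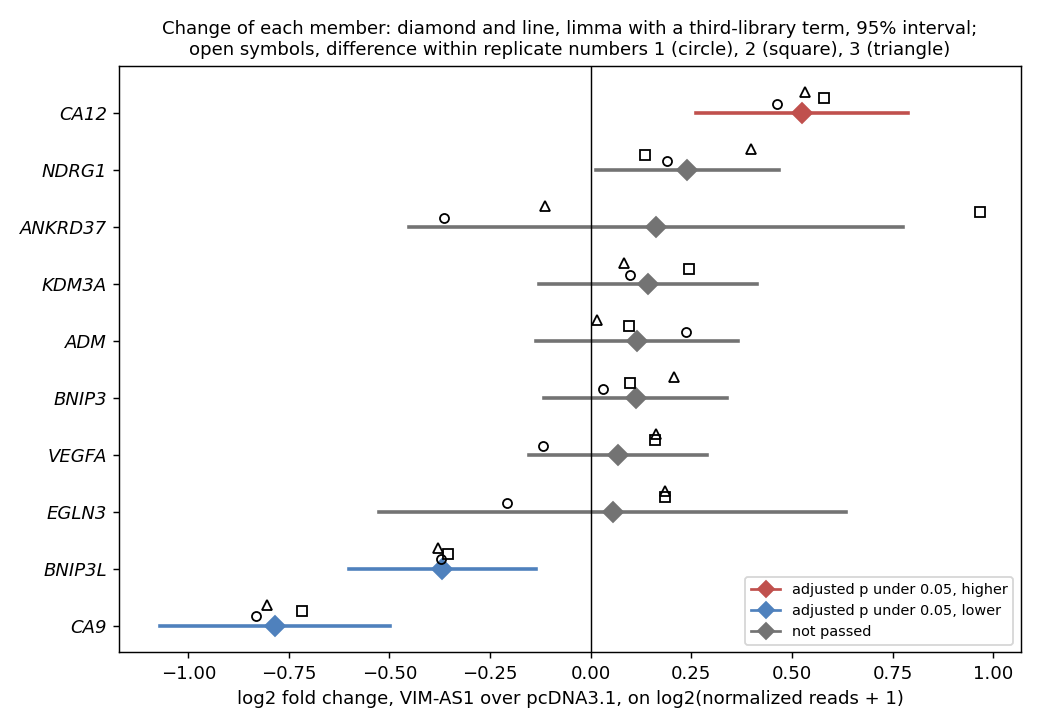
Log2 fold change of VIM-AS1 over pcDNA3.1 for each gene (diamonds) with its 95% interval (lines) from limma with a term for the third libraries, and the difference within each replicate number (open symbols). For CA9, BNIP3L and CA12 the 3 open symbols lie close together, at -0.83 to -0.72 for CA9, while for ANKRD37 they run from -0.37 to 0.97.

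The shift of the third libraries differed between members, and for several it was larger than the difference between groups. It was 0.81 for KDM3A and 0.73 for BNIP3L on the log2 scale, genes whose longest transcripts hold 42.5% and 38.9% GC, and -0.56 for CA9, with 60.1% GC. For CA12 (50.2% GC) it was 0.14. The shift was larger in size than the group difference for KDM3A, BNIP3L, BNIP3, NDRG1, EGLN3, VEGFA, ADM and ANKRD37, with both sizes nearly equal for the last 3. CA9 and CA12 were the 2 members with the larger group difference.

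**Figure D4:**
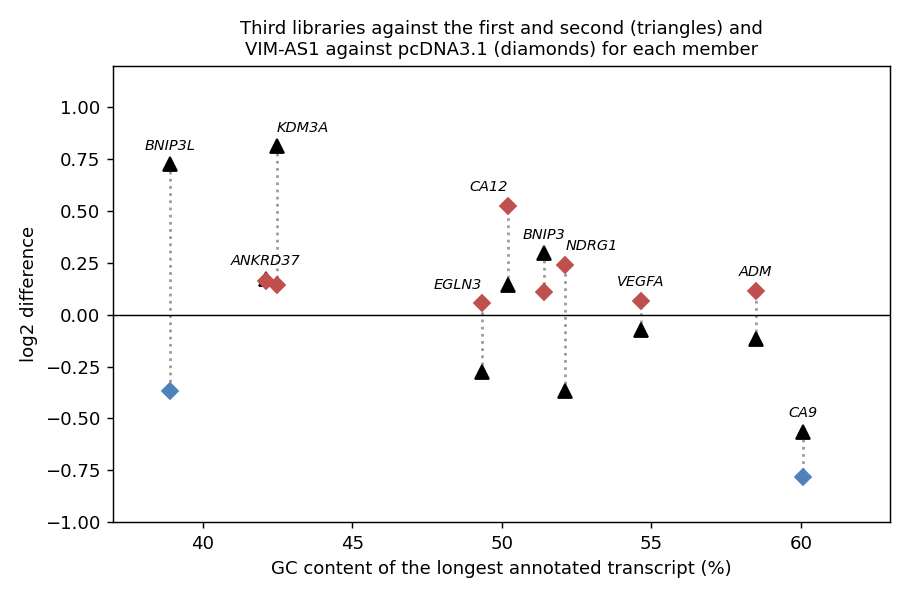
Log2 difference of the third libraries from the first and second, averaged over both groups (triangles), and of VIM-AS1 from pcDNA3.1 (diamonds, red above 0 and blue below 0), against the GC content of each gene's longest annotated transcript. The triangles run from 0.73 for BNIP3L at 38.9% GC to -0.56 for CA9 at 60.1%, and for ANKRD37 both symbols coincide.

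Levels were compared between genes per kilobase of exon. In the controls NDRG1 was the most abundant (365.9 normalized reads per kb), followed by CA9 (232.2), BNIP3 (142.4), BNIP3L (139.8), ADM (130.8), VEGFA (67.9), CA12 (32.6), KDM3A (20.5), ANKRD37 (15.5) and EGLN3 (5.43). The ranges of BNIP3, BNIP3L and ADM overlapped, as did those of BNIP3L and CA9 and those of KDM3A and ANKRD37. With VIM-AS1, CA9 stood at 135.2 per kb, within the range of BNIP3L and below the means of BNIP3 (154.4) and ADM (142.1). The length chosen matters for this order: per kb of the longest transcript BNIP3 (247.2) was just above CA9 (239.7) in the controls. Opposite-strand exons of other genes cover 38.5% of the CA9 exons and 35.2% of the ANKRD37 exons. How reads there were counted is not known, so the places of CA9 and ANKRD37 in the order are less certain.

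The genes whose pattern over the 6 libraries was most like that of CA9, among 9757 other named genes averaging 100 or more, were GLI4 (Pearson r = 0.998 over 6 libraries), ADGRB2, POLR1D, LRRC75B and FAM171A2 (each 0.995). GLI4 was at 205.4, 243.0 and 157.6 normalized reads with VIM-AS1 and at 323.3, 370.2 and 261.4 in the controls. Of the genes compared, 5.08% had an r over 0.9. The longest transcripts of 4 of these 5 genes hold 63.7% to 71.3% GC, and that of POLR1D 48.3%. The likeness includes the shared drop in the third libraries.

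Of 15 genes of oxygen sensing, 5 rose, none fell and 10 did not pass (6 higher and 1 lower with the replicate block). Of all tested genes 11.5% were higher and 7.94% lower with the term, and 15.8% and 10.8% with the block. EPAS1, which encodes a HIF alpha subunit, was at 1378, 1341 and 1400 normalized reads in the VIM-AS1 libraries, against 828.8, 882.1 and 718.0, and rose by 0.77 ± 0.11 on the log2 scale (limma with the term, adjusted p = 5.76e-05). No VIM-AS1 library overlapped the controls. HIF1AN, which encodes an asparagine hydroxylase that limits HIF activity, rose from 867.6 ± 94.9 to 1287 ± 133, and the prolyl hydroxylase gene EGLN1 rose (0.47 ± 0.10), as did the coactivator genes EP300 (0.44) and CREBBP (0.38). HIF1A, the other main alpha subunit gene, was at 223.4, 201.8 and 544.4 against 209.1, 88.0 and 400.4. It did not pass with the term (log2 fold change 0.58, adjusted p = 0.065) and was called with the replicate block (adjusted p = 0.00512). VHL was at 935.3 to 1227 against 688.7 to 1216 and did not pass. In limma with only the group in the model, and no GC and length correction, no gene of any list described here passed.

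Of 36 other hypoxia targets outside glycolysis 5 rose, 5 fell and 26 did not pass (8 and 7 with the replicate block), with a median log2 fold change of 0.01. CITED2, which encodes a HIF-induced protein that competes with HIF for its coactivators, rose from 1373 ± 119 to 2424 ± 138. ANGPTL4, a secreted regulator of lipoprotein lipase, rose (0.74 ± 0.16), as did AK4 (0.45) and KDM4B (0.36). NDUFA4L2, a mitochondrial protein gene induced in hypoxia, fell from 1112 ± 321 to 603.9 ± 161, the endothelin gene EDN1 fell from 438.8 ± 30.9 to 279.2 ± 35.4, and PDGFB fell (-0.47). Of 21 glycolytic hypoxia targets 13 rose and none fell (14 and 0 with the replicate block), with a median of 0.43. Over all tested genes 11.5% were higher and 7.94% lower. HK2 (1.08), PGAM1 (0.82), PFKFB4 (0.64) and the lactate exporter gene SLC16A3 (0.64) showed the largest rises of that list. The lists were drawn up with earlier results of these data known and are described by their counts, and the difference between them was not tested.

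**Figure D5:**
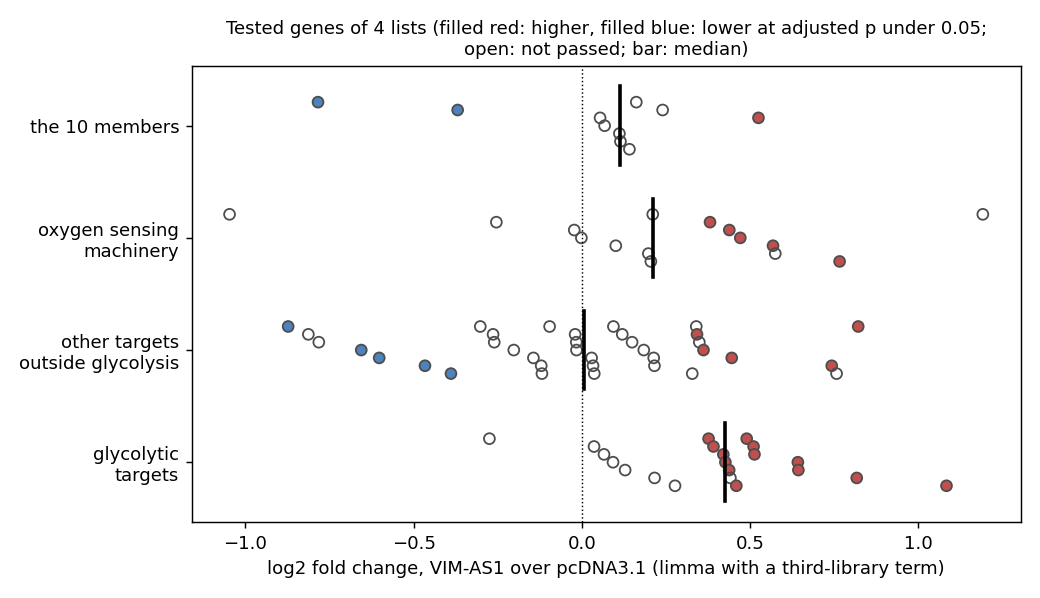
Log2 fold change (horizontal axis, limma with a term for the third libraries) of each tested gene of 4 lists, with called genes filled, genes that did not pass open, and the median as a bar. The glycolytic list has 13 filled points, each above 0, and the 10 members have 1 above and 2 below.

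Of 9 tested markers of other cell types 1 rose, 3 fell and 5 did not pass. The same fit called 11.5% of all tested genes higher and 7.94% lower. Of the fibroblast list DCN fell from 252.6 ± 77.4 to 100.1 ± 16.1 and COL1A1 fell (-0.46), while LUM and COL1A2 were at no more than 2.05 in each library. Summed over the 5 fibroblast genes with a row, the level ran from 974.2 to 1426 with VIM-AS1 and from 1660 to 1863 in the controls. Of the endothelial list VWF rose (1.10 ± 0.25), CDH5 and ESAM did not pass (ESAM was called higher with the replicate block, adjusted p = 0.0152), TEK was at 2.88 or less and PECAM1 at 5.53 or less, and the sum over 5 genes ran from 1565 to 2362 against 1254 to 2266. Of 3 leukocyte genes CSF1R fell (-1.05) and 2 did not pass, among them CD68 at 3.84 or less, with sums from 43.0 to 55.8 against 57.7 to 81.9. Their part in the values of the 10 genes was not tested. In bulk libraries, fewer cells of a kind and less RNA per cell cannot be told apart.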

How the data were processed

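Total RNA of 6 libraries was sequenced. The submitters' processing notes name fastp, HISAT2, featureCounts and the build hg38. For versions, annotation and strand setting, nothing was given in the sources used here. Per gene, the authors deposited a signal made of gene counts divided by 1 factor per library: 100% were whole multiples of 1 step within 0.01 read. The factors (0.819 to 1.27) equalled the median-of-ratios size factors, so that scaling was not run separately. Depth was 14762893 to 19889745 reads per library, and floors cover counting error only.

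Symbols, positions and lengths came from GENCODE 29 (GRCh38), promoters from RefSeq. The promoters of VEGFA, BNIP3L and NDRG1 were not searched, so whether they hold a core was not tested. Of 157 list entries 139 had a row, and the others, KLK2 and TMPRSS2 among them, were not analysed here. Values of a few list genes are not reported here. The 20927 genes with a mean of at least 1 were fitted with limma 3.58.1 (R 4.3.3, intensity trend, pseudocount 1; Benjamini-Hochberg over all genes), without and with a term for the third libraries. A fold change on the log2(value + 1) scale understates that of low genes. Same-numbered libraries deviated together (Pearson r 0.32, 0.72 and 0.84 over 13175 genes averaging 20 or more). The replicate number was taken to pair them, from the data and not from the labels. VIM-AS1 replicate 1 nevertheless followed control replicate 2 (0.42) more closely than control replicate 1 (0.32). Control replicate 1 followed VIM-AS1 replicate 2 (0.33) about as closely as VIM-AS1 replicate 1. VIM-AS1 replicate 2 was closest to control replicate 2 (0.72). Deviations were taken from group means, so a shift shared by the third libraries alone makes the first and second libraries correlate. The pairing of numbers 1 and 2 is therefore an assumption. The replicate block and the differences within numbers 1 and 2 rest on it.

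Alternatives were other scalings, filters and a pseudocount of 0.1, edgeR 4.0.16, DESeq2 1.42.0 and limma-voom on recovered reads, a GC and length spline correction (5 degrees of freedom each), the replicate block and each library left out. Fits on the first and second libraries alone were added after the data were seen. Named were the 10 members, up to 4 called genes per direction of each list, a few sensors, and the 5 genes most like CA9. Markers and further list members were picked with values in view. The members and lists were chosen with earlier results of these data known.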

Additional observations from a re-analysis of the deposited data

How the results depend on the processing

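Without the third-library term no member passed under any scaling, filter, pseudocount or count test run, with 2 exceptions. The GC and length correction gave 1 lower member (CA9), and the replicate block gave 2 higher (CA12 and NDRG1) and 2 lower (CA9 and BNIP3L). The first and second libraries alone gave none (CA9 adjusted p = 0.071), in a fit that called 1.61% of genes. With the term, the count of 1 higher and 2 lower held under TMM and library size scaling, both other filters, the pseudocount of 0.1, edgeR, DESeq2 and limma-voom, and the GC and length correction gave 1 lower. Leaving out single libraries gave 0 to 1 higher and 0 to 2 lower with the term, and 0 to 0 of each without it. With the term, no member passed without VIM-AS1 replicate 3 or control replicate 3. Both fits take the difference from the first and second libraries alone, so they are not separate checks. The difference in mitochondrial share (main value -5.12 percentage points) ran from -6.56 to -3.80 with single libraries left out.

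Signs turned only for members that did not pass. EGLN3 was at -0.0044 under library size scaling in both fits and at -0.011 in the first and second libraries alone. With single libraries left out, its value ran from -0.12 to 0.17 without the term and from -0.10 to 0.24 with it, and that of ANKRD37 from -0.067 to 0.32 and from -0.068 to 0.31. BNIP3 (-0.011 to 0.21) and KDM3A (-0.11 to 0.43) crossed 0 without the term. The cause was not tested. Library size scaling lowered the log2 fold change of VEGFA to 0.0075, of ADM to 0.055, of BNIP3 to 0.051, of KDM3A to 0.081 and of ANKRD37 to 0.10. Median shifts between scalings were under 0.1 on the log2 scale (-0.06 for library size). Depth limits EGLN3 and ANKRD37, at 23 to 59 reads per library.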

Other observations

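Genes that work beside the members in pH control and mitophagy were also measured. SLC16A1, a lactate and proton carrier, rose from 858.0 ± 254 to 1264 ± 468 normalized reads (log2 fold change 0.54 ± 0.11, limma with the third-library term, adjusted p = 0.00162). Its partner BSG and the bicarbonate carrier gene SLC4A7 did not pass. Of 10 mitophagy genes, the inner membrane protein gene PHB2 (0.42 ± 0.11) and the autophagy adaptor gene SQSTM1 (0.43 ± 0.11) rose and none fell. PINK1, FUNDC1 and BCL2L13 were among the 8 that did not pass. FKBP8 was called lower with the replicate block (adjusted p = 0.0324). The shares called in the pH list (2 of 9 tested) and the mitophagy list (2 of 10) were near the 19.4% of all tested genes.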
